A study of Mus musculus with 17 samples.

Results

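Prostaglandins are short-range lipid signals made and broken down by a small enzyme cascade. A set of 9 mouse genes of that cascade and its receptors is described here in 3 stem cell populations of the epidermis, with and without the ribosome-rescue gene Pelo. They are the cyclooxygenase genes Ptgs1 and Ptgs2, the prostaglandin E synthase genes Ptges and Ptges3, the prostaglandin D synthase gene Hpgds, the reductase gene Akr1c18, the breakdown gene Hpgd, and the prostaglandin E receptor genes Ptger3 and Ptger4. The 9 genes were picked by name from the 48820 gene identifiers of the count table, and each matched 1 identifier. Ptgs1, Akr1c18 and Hpgds were selected on their values, because they differed between populations or with Pelo loss in these same libraries. Their levels are therefore given as a description with no test. Tests are given for the other 6 genes.

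Cyclooxygenases turn arachidonic acid, which phospholipases A2 release from membranes, into the unstable intermediate prostaglandin H2. Terminal synthases then make prostaglandin E2, D2 or F2alpha from it, each read by its own G protein-coupled receptors, and the dehydrogenase encoded by Hpgd starts their inactivation. In skin, prostaglandins are known for their part in inflammation, in the response to ultraviolet light and wounding, and in control of hair growth. Ptgs1 is commonly described as the constitutive cyclooxygenase and Ptgs2 as the inducible one.

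RNA was measured by sequencing of 17 libraries, each made by a full-length method from 1000 sorted GFP-positive epidermal cells of C57BL/6 mice aged 3 months. All mice carried an EGFP-CreERT2 cassette at 1 of 3 stem cell genes, which both marked the cells for sorting and drove recombination, and all had received 4-OHT (4-hydroxytamoxifen, which activates CreERT2). As background, Lrig1+ cells are known from the upper hair follicle, Lgr6+ cells from the isthmus region, and Lgr5+ cells from deeper in the follicle. The 6 groups were WT Lrig1 (2 libraries), Pelo -/- Lrig1, WT Lgr6, Pelo -/- Lgr6, WT Lgr5 and Pelo -/- Lgr5 (3 libraries each). The groups called WT came from mice with 1 floxed Pelo allele (Pelo fl/+), so they too were exposed to Cre and 4-OHT, and the groups called Pelo -/- came from Pelo fl/fl mice. Triplicates are named in the series text, and no more than 2 WT Lrig1 libraries were used here. The labels do not say whether replicates were separate animals, so the p-values measure the spread between these samples, which may be technical.

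Total counts lay between 9647507 and 28098841 per library (median 18937127). The Lgr5 libraries stood apart in several ways: their scaling factors by TMM (a method that equalises library composition) were 0.99 to 1.91 against 0.688 to 0.964 elsewhere, and replicates resembled each other less, with a Spearman correlation across genes of 0.77 to 0.821 against 0.855 to 0.882. In WT Lgr5 replicate 3, 16.6% of all counts fell on the predicted gene Gm10800. Lgr5 itself was at 275.1 to 569.4 CPM in the Lgr5 libraries and at most 29.43 elsewhere. The other 2 genes that carried the cassette separated their populations less: Lrig1 was at 37.7 to 41.72 CPM in 3 Lrig1 libraries, at 7.417 and 11.59 CPM in Pelo -/- Lrig1 replicates 2 and 3, at 39.3 to 60 in the Lgr6 and 10.07 to 18.07 in the Lgr5 libraries, and Lgr6 (17.57 to 197.3 CPM) overlapped between all 3 populations. Pelo did not separate the genotypes: it was at 5.89 to 17.39 CPM in WT Lgr5 and 11.79 to 23.57 in Pelo -/- Lgr5, and Pelo -/- Lrig1 libraries held 0.4824 to 3.813 CPM against 3.722 and 6.049 in WT Lrig1. A full-length count does not show which exons the reads covered. Levels are CPM, the counts of a library divided by its TMM-scaled size, throughout, and a gene was called changed when the Benjamini-Hochberg adjusted p of edgeR's quasi-likelihood test over 30405 genes was under 0.05.

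The 9 genes lie on separate loci of the mouse genome (GRCm38, GENCODE M21). Ptgs1 lies on chromosome 2 at 36230426 to 36252272 on the plus strand, Hpgd on chromosome 8 at 56294585 to 56321043 (plus), Akr1c18 on chromosome 13 at 4132615 to 4150654 (minus) and Hpgds on chromosome 6 at 65117293 to 65144908 (minus). Ptgs2 lies on chromosome 1 at 150100031 to 150108227 (plus), Ptges on chromosome 2 at 30889471 to 30929863 (minus), Ptges3 on chromosome 10 at 128058954 to 128077272 (plus), Ptger3 on chromosome 3 at 157566892 to 157645888 (plus) and Ptger4 on chromosome 15 at 5206661 to 5244187 (minus). The 5′ flanks of 3 genes are printed, those of Ptgs1 and Akr1c18, whose group means were higher in Lrig1 and Lgr6 than in Lgr5 cells, and that of Hpgd, which had the opposite pattern. They are the bases just before the start of the RefSeq gene (GRCm38.p6), read on the gene's own strand and cut where an annotated exon begins. Capitals mark the GC box GGGCGG or its reverse complement.
Ptgs1, 250 bases, chr2:36230176-36230425, plus strand: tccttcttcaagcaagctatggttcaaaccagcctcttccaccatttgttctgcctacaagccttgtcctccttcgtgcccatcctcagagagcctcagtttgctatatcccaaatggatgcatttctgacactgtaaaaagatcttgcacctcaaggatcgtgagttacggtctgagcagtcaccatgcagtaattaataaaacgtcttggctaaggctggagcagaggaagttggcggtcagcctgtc
Akr1c18, 242 bases, chr13:4150655-4150896, minus strand: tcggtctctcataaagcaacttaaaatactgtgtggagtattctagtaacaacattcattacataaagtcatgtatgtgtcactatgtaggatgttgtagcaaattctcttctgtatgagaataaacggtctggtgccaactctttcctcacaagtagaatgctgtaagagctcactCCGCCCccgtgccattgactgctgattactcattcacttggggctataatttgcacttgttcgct
Hpgd, 250 bases, chr8:56294302-56294551, plus strand: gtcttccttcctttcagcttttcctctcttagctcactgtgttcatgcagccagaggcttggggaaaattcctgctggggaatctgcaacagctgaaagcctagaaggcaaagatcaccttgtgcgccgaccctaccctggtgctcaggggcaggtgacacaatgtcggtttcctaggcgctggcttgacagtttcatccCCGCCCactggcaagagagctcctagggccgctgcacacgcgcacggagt
A set of 5 motifs was searched on both strands of the 250 bases before each start: the TATA box (TATAAA), the GC box (GGGCGG), the AP-1 site known from inducible genes (TGANTCA), the core of the cyclic AMP response element (TGACG) and the E-box known from basic helix-loop-helix factors (CACGTG). Matches of different motifs may overlap. Among 27025 RefSeq flanks of that length, 13% held the TATA box, 32.9% the GC box, 6.87% the AP-1 site, 17.9% the response element core and 6.05% the E-box. All 9 genes had a flank in the table. The GC box was found in 7 of them, once in Hpgd and once in Akr1c18, and not in Ptgs1 or Hpgds, and the other 4 motifs were found in none. The flanks of Hpgds and Ptgs2 lie mostly within annotated exons and are not printed.

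Among the cyclooxygenases, Ptgs1 was close to absent from the Lgr5 libraries and read at a moderate level in all others. Ptgs1 was at 44.86 and 142.1 CPM in the WT Lrig1 pair and at 81.83, 125.6 and 50.35 in the Pelo -/- Lrig1 libraries. In Lgr6 cells it was at 188.9, 72.08 and 96.36 CPM (WT) and 130.4, 81.55 and 196.6 CPM (Pelo -/-). It was at 1.348, 0.5122 and 1.849 CPM in WT Lgr5 and 0.5278, 0.5661 and 0.7496 in Pelo -/- Lgr5, which are 8 to 34 raw counts per library. Every one of the 11 Lrig1 and Lgr6 libraries lay above every Lgr5 library, while the 4 Lrig1 and Lgr6 groups overlapped their neighbours in order of mean. The fitted log2 fold change against Lgr5 cells of the same genotype was 6.22 in WT Lrig1, 6.57 in WT Lgr6, 7.10 in Pelo -/- Lrig1 and 7.77 in Pelo -/- Lgr6. Pelo loss came with log2 differences in Ptgs1 of -0.12 in Lrig1 cells (-0.79 to 1.109 with 1 library left out, the highest without WT Lrig1 replicate 2) and 0.19 in Lgr6 cells (-0.17 to 0.70, the lowest without Pelo -/- Lgr6 replicate 3). In Lgr5 cells the means were 1.24 ± 0.676 CPM (SD, n = 3) in WT and 0.6145 ± 0.1185 CPM (SD, n = 3) in Pelo -/- libraries. An opposite-strand gene, Gm43621, overlaps Ptgs1 exons by 148 bases, and its reads cannot be told apart there unless strand was used.

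Ptgs2, the inducible cyclooxygenase, spread widely within most groups. Among Lrig1 libraries Ptgs2 was at 25.09 and 31.81 CPM (WT) and 4.74, 42.03 and 15.56 CPM (Pelo -/-), and among Lgr6 libraries at 39.38, 4.882 and 85.19 CPM (WT) and 70.65, 39.15 and 40.13 CPM (Pelo -/-). Among Lgr5 libraries it was at 8.36, 11.2 and 28.01 CPM (WT) and 32.08, 12.31 and 5.086 CPM (Pelo -/-). All 6 groups overlapped their neighbours, and no comparison was called for Ptgs2. The log2 difference of WT Lgr6 from WT Lgr5 cells was 1.44 ± 0.82 (SE, adjusted p = 0.304), with a 95% interval from -0.18 to 3.05. It was 0.26 without WT Lgr6 replicate 3 and 2.13 without WT Lgr5 replicate 3.

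**Figure D1:**
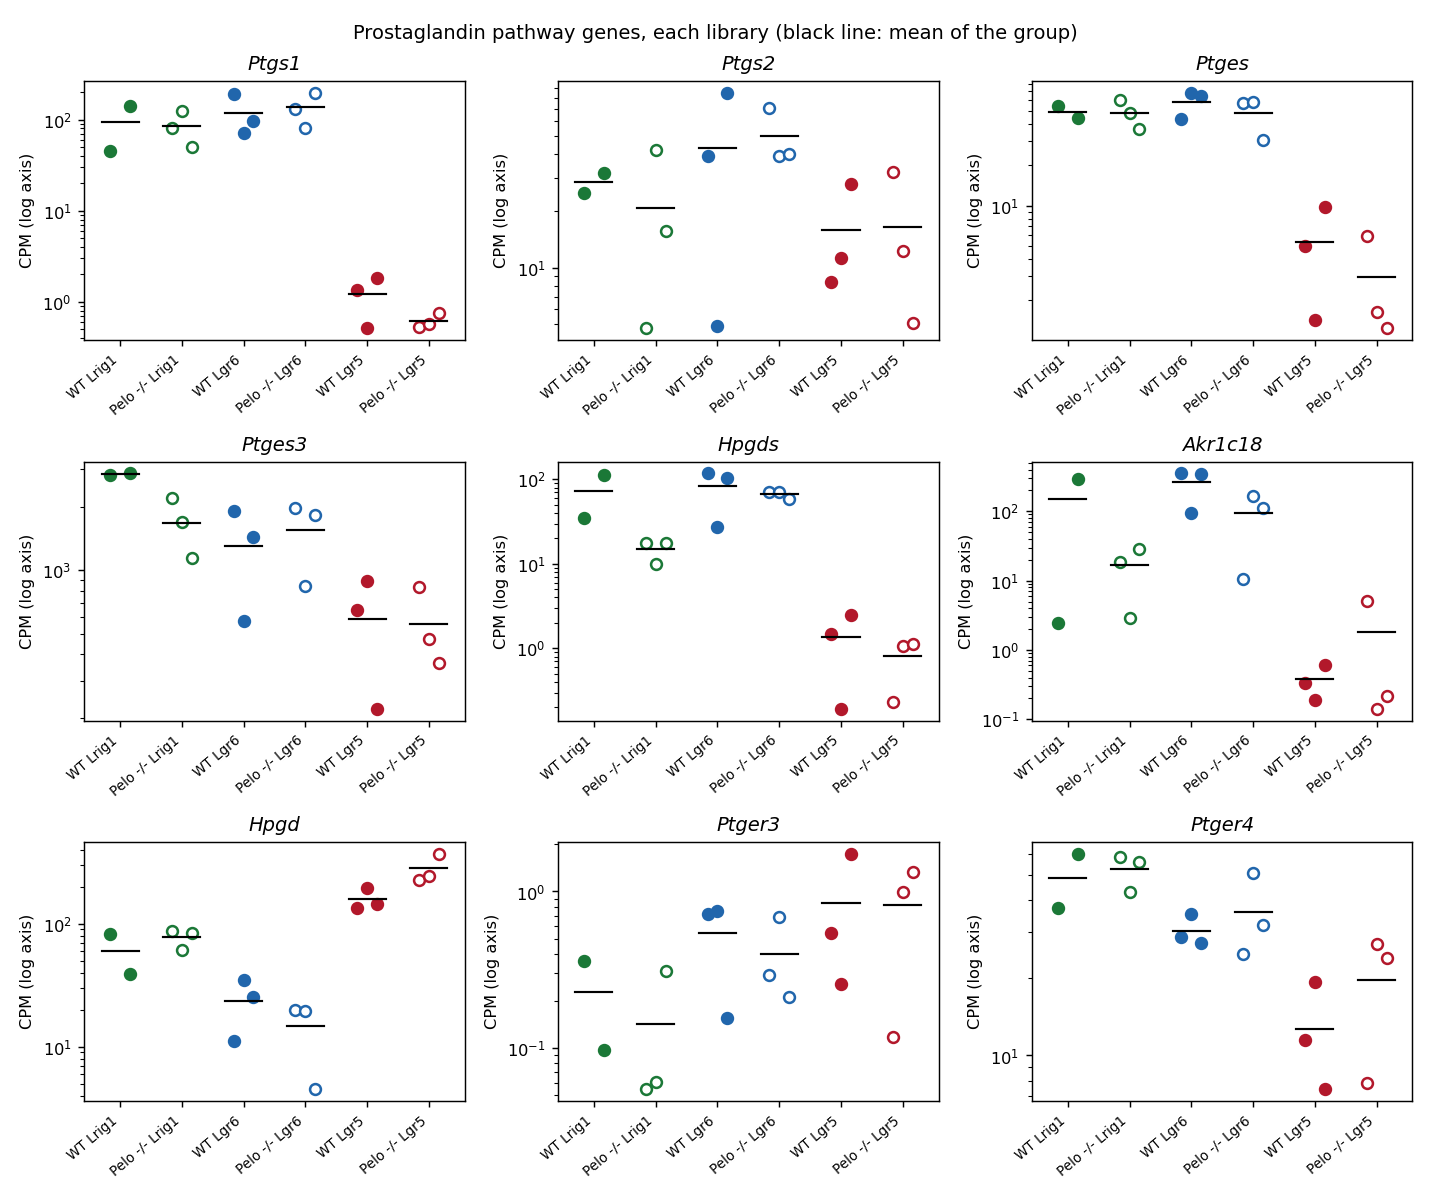
CPM (log axis) of the 9 genes in each of the 17 libraries, by group; filled points are WT, open points Pelo -/-, and black lines are group means. Ptgs1, Hpgds and Ptges drop in the red Lgr5 groups, where Hpgd is highest, and Ptgs2 scatters within most groups, the WT Lrig1 pair excepted.

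Scaled by exon length, the balance of the 2 cyclooxygenases was opposite in the Lgr5 cells and the rest. The ratio of Ptgs1 to Ptgs2, in CPM per kb, lay between 1.33 and 20.4 (median 3.81) in the 11 Lrig1 and Lgr6 libraries and between 0.0194 and 0.19 (median 0.066) in the 6 Lgr5 libraries. Ptgs1 was thus the more abundant of the pair in all 11 and the less abundant in all 6. Ptgs2 levels themselves overlapped between these sets. Because Ptgs1 was selected on its values, the split of this ratio largely follows from that selection, and it was not tested.

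Ptges encodes the membrane-bound, inducible prostaglandin E synthase. Its level was 54.26 and 44.38 CPM (WT) and 60.2, 48.36 and 36.96 CPM (Pelo -/-) in Lrig1 cells, and 43.49, 68.3 and 64.35 CPM (WT) and 57.49, 58.26 and 30.42 CPM (Pelo -/-) in Lgr6 cells. In Lgr5 cells it was 5.057, 1.409 and 9.736 CPM in WT and 5.981, 1.628 and 1.231 in Pelo -/- libraries. The lowest of the 11 Lrig1 and Lgr6 libraries (30.42) was above the highest Lgr5 library (9.736), with no order among the 4 higher groups beyond their overlap. Against Lgr5 cells Ptges was higher in WT Lrig1 by 3.18 ± 0.64 on the log2 scale (SE, adjusted p = 0.00129 by edgeR) and in WT Lgr6 by 3.43 ± 0.62 (adjusted p = 0.000328). The differences between the Pelo -/- groups were 4.04 ± 0.64 for Lrig1 (adjusted p = 0.000168) and 4.04 ± 0.64 for Lgr6 (adjusted p = 0.000119). Ptges was called in these 4 comparisons under every alternative tried.

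Ptges3 encodes p23, a cochaperone of HSP90 that also has prostaglandin E synthase activity, and was far more abundant than Ptges also per kb of exon, with a ratio of Ptges to Ptges3 of 0.000893 to 0.067 over the 17 libraries. Its level was 2839 and 2878 CPM (WT) and 2196, 1685 and 1142 CPM (Pelo -/-) in Lrig1 cells, and 1904, 575.1 and 1441 CPM (WT) and 1972, 838.1 and 1836 CPM (Pelo -/-) in Lgr6 cells. Lgr5 libraries held 645.1, 889.5 and 220.8 CPM in WT and 835, 472.8 and 363.3 in Pelo -/-. Both WT Lrig1 libraries lay above all 15 others, and replicate 2 of both Lgr6 groups (575.1 and 838.1) lay within the Lgr5 range. The log2 difference from Lgr5 cells was called in WT Lrig1 (2.29 ± 0.53, adjusted p = 0.00488) and Pelo -/- Lrig1 (1.59 ± 0.49, adjusted p = 0.0450), and not in WT Lgr6 (1.16 ± 0.48, adjusted p = 0.135) or Pelo -/- Lgr6 (1.47 ± 0.49, adjusted p = 0.0551). The WT Lrig1 call was lost without WT Lrig1 replicate 2 (adjusted p = 0.0904) and without WT Lgr5 replicate 3 (0.0525). The call in Pelo -/- Lrig1 was lost with DESeq2 (0.0510), with RLE size factors (0.0731), without Pelo -/- Lgr5 replicate 3 (0.170) and under 11 other alternatives. The value in Pelo -/- Lgr6 was called under 7 alternatives, limma-voom among them (0.0352), and that in WT Lgr6 without WT Lgr6 replicate 2 (0.0495). Of the 50-base windows of Ptges3 transcripts, 19.6% also occur in other genes, nearly all in the pseudogene Ptges3-ps, and how the authors treated such reads is not given.

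Hpgds encodes the glutathione-dependent prostaglandin D synthase, known from mast cells, T helper cells and antigen-presenting cells. In Lrig1 cells Hpgds was at 34.5 and 112.3 CPM (WT) and 17.65, 9.889 and 17.66 CPM (Pelo -/-). WT Lgr6 libraries held 117.9, 27.28 and 104 CPM and Pelo -/- Lgr6 libraries 71.53, 70.31 and 58.29. Lgr5 libraries held 1.483, 0.1921 and 2.448 CPM in WT and 0.2346, 1.062 and 1.124 in Pelo -/-, on 3 to 45 counts. All 11 Lrig1 and Lgr6 libraries lay above all 6 Lgr5 libraries, and the 3 Pelo -/- Lrig1 libraries lay below every other Lrig1 and Lgr6 library. Hpgds was selected on its values, so these orders carry no weight as a result. Between the Pelo -/- and WT Lrig1 libraries, 10.7% of all genes were lower without overlap. The fitted log2 difference with Pelo loss was -2.28 in Lrig1, -0.32 in Lgr6 and -0.78 in Lgr5 cells. The Lrig1 value was -1.05 without WT Lrig1 replicate 2. The Lgr6 value, when 1 library was left out, ran from -0.73 to 0.04 and that of Lgr5 from -1.40 to -0.09, the highest of each without WT replicate 3. Against Lgr5 cells the log2 differences were 5.72 (WT Lrig1), 5.90 (WT Lgr6), 4.21 (Pelo -/- Lrig1) and 6.36 (Pelo -/- Lgr6).

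Markers of immune cells were read beside Hpgds. The 10 mast cell markers summed to 1.397 to 6.315 CPM in the Lrig1 and Lgr6 libraries, less than Hpgds alone in each, and 0 to 2 of the 10 had a mean of at least 1 CPM in any of these groups. In the Lgr5 libraries, where Hpgds was lowest, the same markers summed to 8.28 to 20.7 CPM. Within that sum Kit was at 17 to 302 raw counts per library and Gata2 at 17 to 70. Cpa3, Mcpt4, Cma1 and Tpsb2 were at 0 to 43 there and at 0 to 12 in the Lrig1 and Lgr6 libraries, which overlap. The 12 Langerhans cell and macrophage markers summed to 65.67 to 505.2 CPM in the Lrig1 and Lgr6 libraries and to 28.18 to 67.37 CPM in the Lgr5 libraries. The 10 T cell markers summed to 15.51 to 100.8 CPM and 4.226 to 32.37 CPM in the same sets. The summed ranges of both lists overlapped between the sets. Of the Langerhans cell and macrophage markers, Cd74, H2-Aa and H2-Eb1 did not. They had 554 to 5546, 189 to 1725 and 51 to 948 raw counts in the Lrig1 and Lgr6 libraries. In Lgr5 libraries they had 5 to 20, 1 to 23 and 2 to 21. The other members overlapped, and Mfge8, the largest part of the Lgr5 sums, ran higher there (271 to 830 against 12 to 415). Of the T cell markers Thy1 alone did not overlap (189 to 757 raw counts in the Lrig1 and Lgr6 libraries against 8 to 58). All other T cell markers overlapped, such as Ptprc (2 to 51 against 7 to 110). The part of these immune cells in the Hpgds level was not tested. In sorted bulk samples fewer cells of a type and less RNA per cell cannot be told apart.

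Akr1c18 encodes an aldo-keto reductase known as 20alpha-hydroxysteroid dehydrogenase, which inactivates progesterone and can form prostaglandin F2alpha. Its level ran from 0.1415 to 353.6 CPM over the 17 libraries. In Lrig1 cells it was at 2.456 and 295.6 CPM in the WT pair and at 18.79, 2.894 and 28.79 in Pelo -/- libraries. In Lgr6 cells it was at 353.6, 93.27 and 344.5 CPM in WT and 10.7, 165.1 and 110.1 in Pelo -/- libraries. Lgr5 libraries held 0.3371, 0.1921 and 0.5983 CPM in WT and 5.043, 0.1415 and 0.2142 in Pelo -/-. Groups next to each other in order of mean overlapped throughout, and 5.043 CPM in Pelo -/- Lgr5 replicate 1 was above 2 of the 5 Lrig1 libraries. Against Lgr5 cells the log2 differences were 8.58 (WT Lrig1), 9.40 (WT Lgr6), 3.21 (Pelo -/- Lrig1) and 5.71 (Pelo -/- Lgr6), the first falling to 2.585 without WT Lrig1 replicate 2. Without Pelo -/- Lgr5 replicate 1 the last 2 values were 6.48 and 8.99. The log2 difference with Pelo loss was -3.15 in Lrig1 cells, which became 2.90 without WT Lrig1 replicate 2. It was -1.47 in Lgr6 cells, and between -2.13 and -0.93 with 1 library left out. In Lgr5 cells it was 2.22, and -1.05 without Pelo -/- Lgr5 replicate 1. A direction with Pelo loss thus rested on a single library in Lrig1 and in Lgr5 cells.

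The other Akr1c genes were read at low levels. The 8 other members of the cluster or family that were listed had mean log2 CPM below 0 over all libraries, and their highest single value was 14.3 CPM. Windows of 50 bases were hardly shared with other genes (0.581% of those of Akr1c18, with Akr1cl).

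Hpgd encodes 15-hydroxyprostaglandin dehydrogenase, the enzyme that starts prostaglandin breakdown, and it was highest where Ptgs1, Ptges and Hpgds were lowest. Lgr5 libraries held 133.9, 194.2 and 144 CPM in WT and 227.2, 245.2 and 369.9 in Pelo -/-. Lrig1 libraries held 81.99 and 38.96 CPM in WT and 86.67, 61.08 and 84.12 in Pelo -/-. Lgr6 libraries held 11.08, 34.73 and 25.29 CPM in WT and 19.89, 19.54 and 4.512 in Pelo -/-. The 3 populations did not overlap in any of the 17 libraries: all 6 Lgr5 libraries lay above all 5 Lrig1 libraries, and these above all 6 Lgr6 libraries. As given above, the Lrig1 gene itself did not mark the Lrig1 against the Lgr6 libraries, and 4 of the 5 held less of it than every Lgr6 library. Other marker sums also did not overlap between the Lgr5 libraries and the rest: fibroblast markers summed to 35.03 to 67.35 against 1.38 to 21.29 CPM, melanocyte markers to 56.36 to 322.7 against 11.89 to 39.14, and mast cell markers as given beside Hpgds. By raw counts, Col1a2 was at 307 to 880 in the Lgr5 libraries against 7 to 91, and Mitf at 596 to 2408 against 149 to 445. Every other fibroblast and melanocyte marker overlapped between the sets by raw counts, and Dcn was highest outside Lgr5 cells (75 against at most 20). Sox10, a melanocyte marker at 17 to 112 raw counts in the Lgr5 libraries against 1 to 21, did not overlap by CPM. The part of these cell types in the Hpgd level was not tested. Hpgd shared no 50-base window with another gene.

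The Hpgd differences were tested for each pair of populations. Against Lgr5 cells Hpgd was lower in WT Lgr6 by -2.73 ± 0.50 on the log2 scale (SE, adjusted p = 0.000353 by edgeR), in Pelo -/- Lgr6 by -4.26 ± 0.53 (adjusted p = 6.33e-06) and in Pelo -/- Lrig1 by -1.86 ± 0.48 (adjusted p = 0.0148). The value in WT Lrig1 was -1.38 ± 0.54 (adjusted p = 0.102), not called, although DESeq2 (adjusted p = 0.0154), limma-voom (0.0353), RLE size factors (0.0344) and a minimum mean CPM of 5 (0.00656) gave a call. The call in Pelo -/- Lrig1 was lost without Pelo -/- Lrig1 replicate 2 (adjusted p = 0.0846) and without Pelo -/- Lgr5 replicate 3 (0.0635). Lrig1 against Lgr6 cells gave 1.35 ± 0.51 in WT and 2.40 ± 0.49 in Pelo -/- libraries, neither called by edgeR (adjusted p = 1 and 0.387). For the Pelo -/- pair DESeq2 gave an adjusted p of 0.00282, and edgeR without the filter on low counts 0.00633. With the genotypes pooled, a contrast chosen after seeing the data, the difference was 1.87 ± 0.35 (unadjusted p = 1.56e-05, adjusted p = 0.114).

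In Lgr5 cells all 3 Pelo -/- libraries lay above all 3 WT libraries in Hpgd, and the difference was not called (0.83 ± 0.47 on the log2 scale, adjusted p = 0.882). In Lgr6 cells the value was -0.70 ± 0.47 and in Lrig1 cells 0.35 ± 0.52 (adjusted p = 1 for both). The difference of the Lgr6 and Lgr5 effects was -1.53 ± 0.66 (unadjusted p = 0.0294, adjusted p = 0.989). The 8 melanocyte markers summed to 56.36 to 127.9 CPM in WT Lgr5 and 146.4 to 322.7 in Pelo -/- Lgr5 libraries, with 6 and 8 of them at a mean of at least 1 CPM. Their sum was thus also higher in the Pelo -/- libraries. In replicates 2 and 3 of these most of it was Mitf (80.46 and 128.9 CPM), and Dct was at 1.124 CPM in replicate 3, below all WT Lgr5 libraries (8.866 to 38.99). Their part was not tested.

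**Figure D2:**
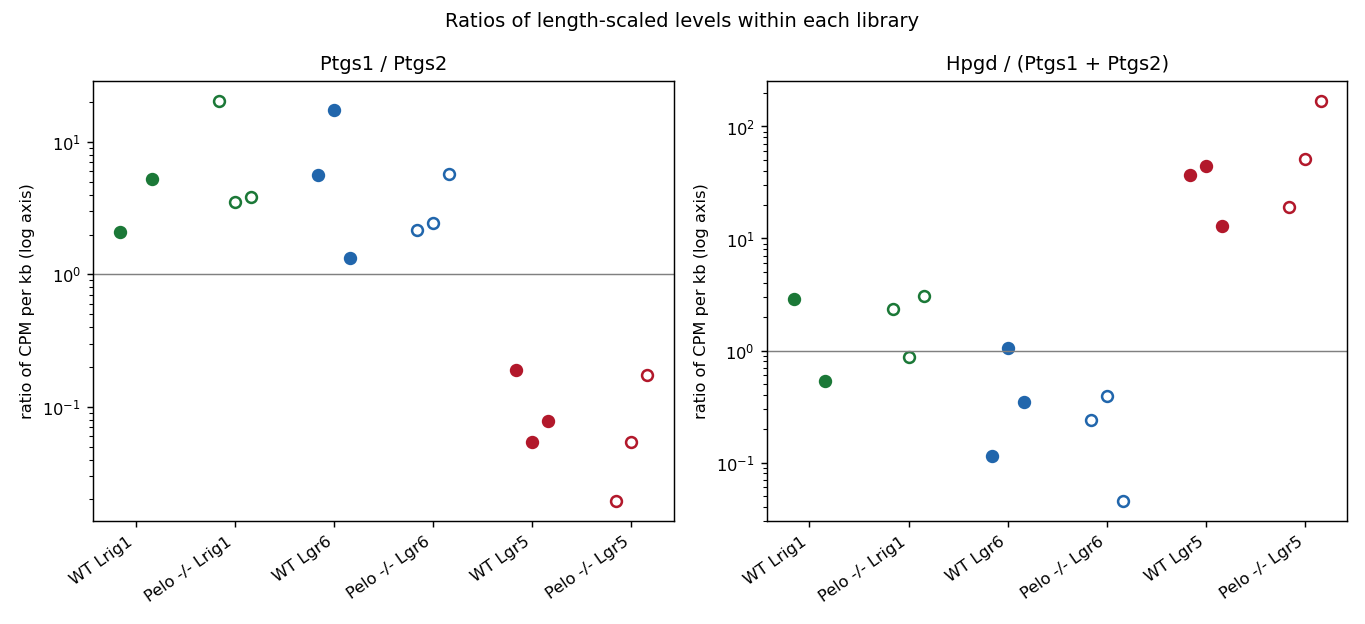
Ratio of Ptgs1 to Ptgs2 (left) and of Hpgd to the sum of both (right), each from CPM per kb of exon on a log axis, in every library; filled points are WT and open points Pelo -/-. The Lgr5 libraries lie below 0.2 on the left and at 13 or above on the right, apart from all others. Ptgs1, in both ratios, was selected on its values.

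The ratio of Hpgd to the sum of Ptgs1 and Ptgs2, per kb, was 13 to 169 (median 40.7) in the Lgr5 libraries and 0.0451 to 3.05 (median 0.532) in the Lrig1 and Lgr6 libraries. It exceeded 1 in every Lgr5 library. Ptgs1, a part of this ratio, was selected on its values, so the split follows in part from that selection and was not tested. In each of the 4 Lrig1 and Lgr6 groups the library with the most Ptgs1 also had the least Hpgd, and in neither of the 2 Lgr5 groups. With so few libraries per group, how often other genes have such an order was not computed.

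Markers of differentiating keratinocytes were read beside Ptgs1. The summed level of 8 suprabasal genes was 3902 to 12800 CPM in the Lrig1 and Lgr6 libraries, most of it Krtdap, Krt10 and Krt1, and 125.4 to 308.5 in the Lgr5 libraries. In all 4 Lrig1 and Lgr6 groups the libraries had the same order by this sum as by Ptgs1. Each group holds at most 3 libraries, Ptgs1 was selected on its values, and the share of all genes in that order was not computed. WT Lrig1 replicate 2, for example, had 12800 CPM of suprabasal genes and 142.1 of Ptgs1, against 4050 and 44.86 in replicate 1. The order by Akr1c18 and by Hpgds was the same as that by the sum in 2 of the 4 groups each, and the order by Hpgd was its reverse in 2 of 4. The 9 bulge markers summed to 3893 to 6163 CPM in the Lgr5 libraries and 764.7 to 1371 elsewhere. That list holds the sorting gene Lgr5, and Postn was the largest part of the sum in every library. By raw counts Nfatc1 (297 to 1005 in the Lgr5 libraries against 415 to 1125) and Tcf7l1 (18 to 275 against 6 to 108) overlapped. The other bulge markers were higher in every Lgr5 library. The 8 sebocyte markers summed to 200.9 to 482 CPM in the Lrig1 and Lgr6 libraries and 57.18 to 101.9 in the Lgr5 libraries, and the libraries had the same order by this sum as by Ptgs1 in 3 of the 4 groups. Of its members Scd1 alone did not overlap between these sets (2370 to 4549 against 298 to 905 raw counts). All others overlapped, such as Fasn (131 to 703 against 222 to 415). The order by Hpgd was the reverse of that by the sebocyte sum in 3 of the 4 groups and in 1 of the 2 Lgr5 groups. By Akr1c18 and by Hpgds it was the same as by the sebocyte sum in 2 of the 4 each. The part of suprabasal cells and sebocytes in these levels was not tested.

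**Figure D3:**
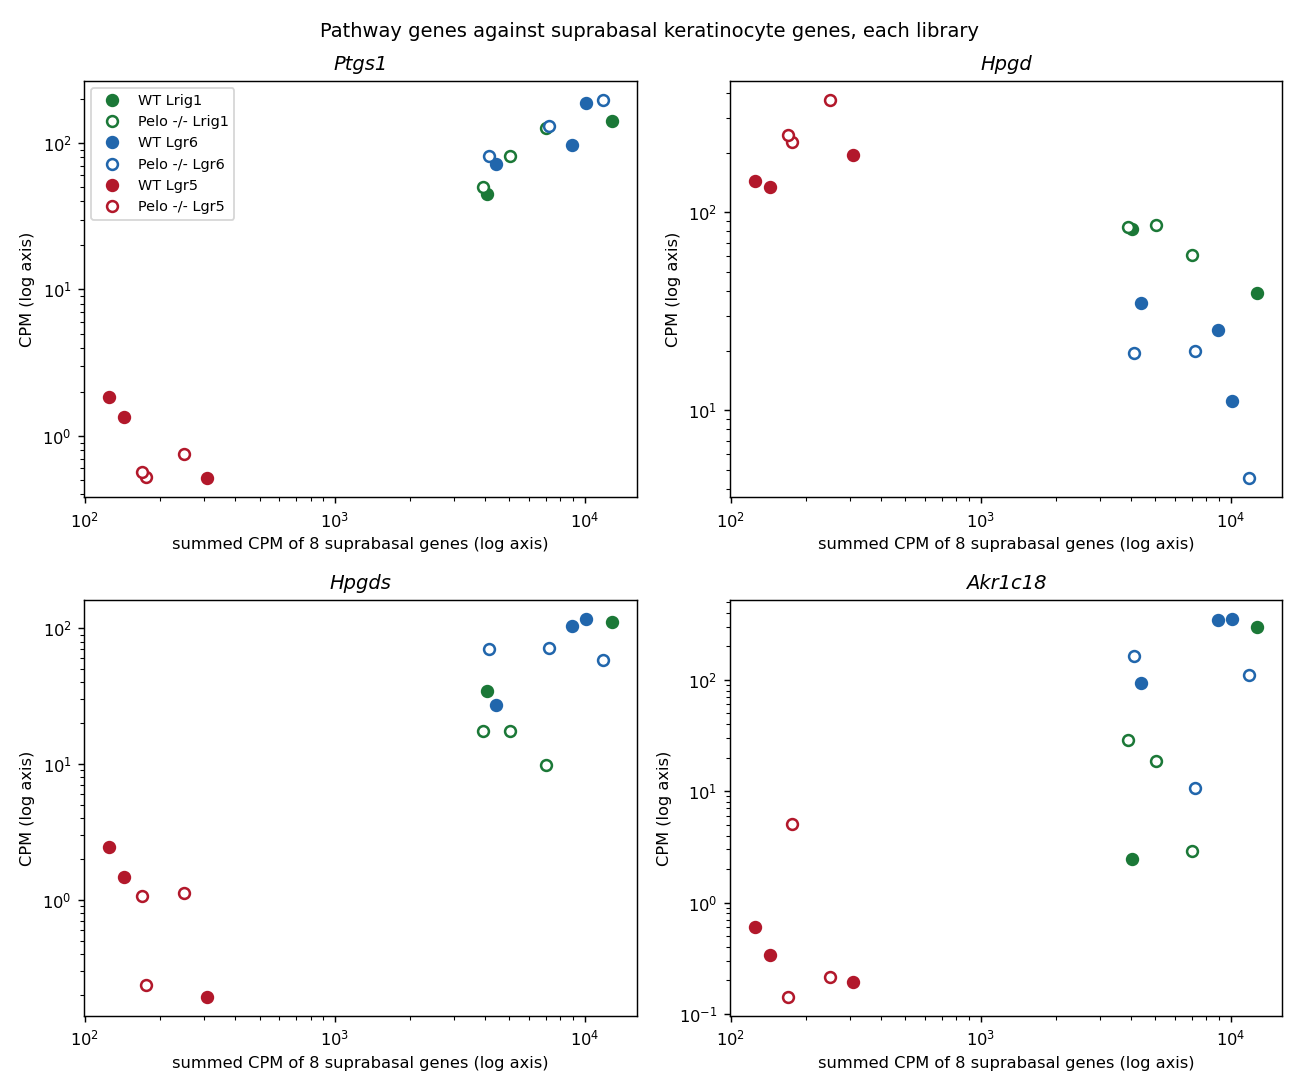
CPM of Ptgs1, Hpgd, Hpgds and Akr1c18 against the summed CPM of 8 suprabasal genes, both on log axes, with 1 point per library. Within each of the 4 Lrig1 and Lgr6 groups the points of Ptgs1 follow the order of the sum, which spans 3902 to 12800 CPM, and those of Akr1c18 do so in 2 of the 4.

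The receptor genes were read at low to moderate levels. Ptger4 encodes the EP4 receptor, which raises cyclic AMP. Lrig1 libraries held 37.07 and 60.18 CPM (WT) and 58.29, 42.81 and 55.87 CPM (Pelo -/-), and Lgr6 libraries 28.77, 35.08 and 27.1 CPM (WT) and 24.56, 50.83 and 31.85 CPM (Pelo -/-). Lgr5 libraries held 11.46, 19.21 and 7.397 CPM in WT and 7.799, 27.03 and 23.72 in Pelo -/-. All 5 Lrig1 libraries lay above all 6 Lgr5 libraries, and Lgr6 libraries overlapped both. Ptger4 was called higher in WT Lrig1 than in WT Lgr5 cells (log2 difference 1.94 ± 0.53, adjusted p = 0.0154), and this was lost without WT Lrig1 replicate 2 (adjusted p = 0.311), without WT Lgr5 replicate 3 (0.0563), with only the 2 groups in the fit (0.0817) and at a minimum mean CPM of 5 (0.0716). The other differences from Lgr5 cells were 1.25 ± 0.48 (WT Lgr6), 1.42 ± 0.48 (Pelo -/- Lrig1) and 0.87 ± 0.48 (Pelo -/- Lgr6), with adjusted p of 0.0980, 0.0713 and 0.259. The value in Pelo -/- Lrig1 was called by DESeq2 (adjusted p = 0.0351) and limma-voom (0.0396), and that in WT Lgr6 without WT Lgr5 replicate 2 (0.0474). Reads of Ptger4 cannot be told apart from those of 2 genes on the opposite strand, Gm15937 and Ttc33, where exons overlap (by 1015 bases at most) unless strand was used.

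Ptger3 encodes the EP3 receptor, which mainly lowers cyclic AMP, and was close to absent from these counts. Its level was 0.05448 to 1.741 CPM over the 17 libraries, from 1 to 32 counts each. No difference was called, and at this depth the 95% interval of, for example, WT Lgr6 against WT Lgr5 cells ran from -2.81 to 1.51 on the log2 scale.

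Read against all genes, these counts stood as follows. Of the 6 genes with tests, 3 were called higher (Ptges, Ptges3, Ptger4) and 0 lower in WT Lrig1 than in WT Lgr5 cells, where 9.09% of all genes tested were called higher and 1.99% lower. In WT Lgr6 against WT Lgr5 cells 1 was higher and 1 lower, beside 10.6% and 1.57% of all genes. In Pelo -/- Lrig1 against Pelo -/- Lgr5 cells 2 were higher and 1 lower, beside 5.77% and 2.08%, and in Pelo -/- Lgr6 against Pelo -/- Lgr5 cells 1 and 1, beside 7.23% and 2.72%. The median log2 difference of the 6 genes was 1.39, 1.21, 0.88 and 1.17 in these 4 comparisons, against -0.99, -0.49, -0.64 and -0.61 over all genes. With RLE size factors the median over all genes moved further down, to -1.36 and -0.996 in the WT and -0.75 and -0.77 in the Pelo -/- comparisons, and at a minimum mean CPM of 5 it was -0.0573, -0.0377, -0.0329 and -0.0517. The WT comparisons share their Lgr5 libraries, as do the Pelo -/- ones. By non-overlap of whole sets of libraries, Ptges was higher and Hpgd lower in the 11 Lrig1 and Lgr6 libraries than in the 6 Lgr5 libraries, as were 7.55% and 2.38% of all genes. Among the 3 selected genes, Ptgs1 and Hpgds also did not overlap, a count that follows from their selection. Hpgd alone of the 6 did not overlap between the 5 Lrig1 and 6 Lgr6 libraries, beside 0.178% of all genes higher and 0.477% lower in Lrig1.

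**Figure D4:**
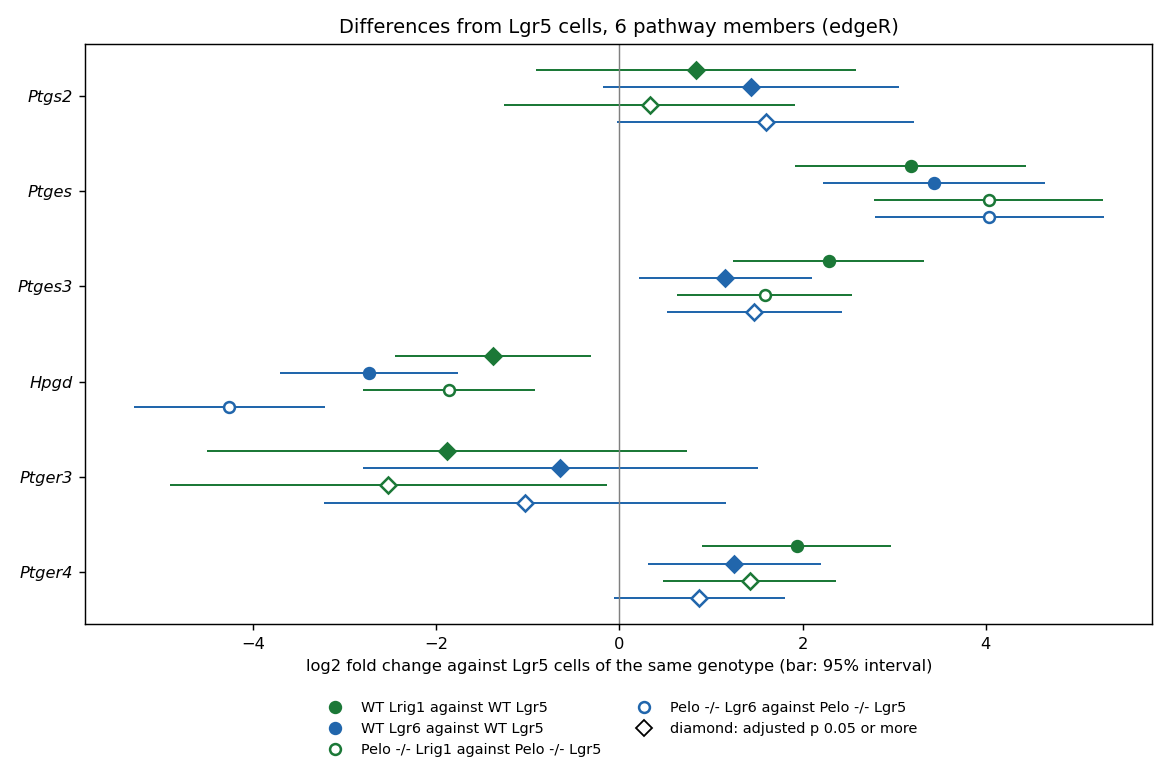
Log2 fold change of the 6 tested genes against Lgr5 cells of the same genotype, with 95% intervals; circles are called (adjusted p under 0.05 by edgeR), diamonds are not, filled is WT and open Pelo -/-. Ptges lies to the right and Hpgd to the left of 0 in all 4 comparisons, and the intervals of Ptgs2 all reach below 0.

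Pelo loss changed none of the 6 genes by test in any population. In Lrig1, Lgr6 and Lgr5 cells, edgeR called 0%, 0% and 0.0197% of all genes, the last being 6 genes, while 1106, 1180 and 1901 genes had an unadjusted p under 0.05. DESeq2 called 33, 18 and 189 genes there and limma-voom 0 in each. The log2 differences of the 6 genes lay between -0.77 (Ptges3 in Lrig1) and 0.35 (Hpgd in Lrig1), between -0.70 (Hpgd) and 0.24 (Ptges3) in Lgr6, and between -0.88 (Ptges) and 0.83 (Hpgd) in Lgr5 cells. Their intervals were wide: for Ptgs2 in Lrig1 cells, with a value of -0.45, the 95% interval was -2.21 to 1.30. Non-overlap of libraries was found for 1 of the 6 in Lrig1 cells (Ptges3, lower), beside 10.7% of all genes lower and 8.17% higher. It was found for none in Lgr6 cells (5.74% lower, 2.5% higher) and for 1 in Lgr5 cells (Hpgd, higher), beside 3.81% higher and 4.41% lower. Differences of the Pelo effect between populations were called for 0% of genes in each of 3 contrasts, with 1613, 1454 and 1278 genes at an unadjusted p under 0.05 and 62, 56 and 55 called by DESeq2, and 0 by limma-voom. WT Lrig1 against WT Lgr6 and Pelo -/- Lrig1 against Pelo -/- Lgr6 cells likewise gave 0% higher and 0% lower, with 1420 and 1277 genes at an unadjusted p under 0.05, 52 and 63 called by DESeq2 and 0 by limma-voom. The pooled contrast gave 0% either way, with 1731 genes at an unadjusted p under 0.05; no other tool was run on it.

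Other genes of the pathway were read from lists of 54 genes: phospholipases A2, other synthases, transporters, reductases, other receptors and other Akr1c genes. Together with the 6 tested genes, 59 of 60 passed the filter on low counts. Against WT Lgr5 cells 13 were called higher and 0 lower in WT Lrig1, and 12 higher and 1 lower in WT Lgr6. In the Pelo -/- comparisons 10 were called higher and 2 lower (Lrig1), and 12 higher and 3 lower (Lgr6). Over all genes tested, 9.09%, 10.6%, 5.77% and 7.23% were called higher in these comparisons, in that order, and 1.99%, 1.57%, 2.08% and 2.72% lower. The median of the 59 was -0.34 and 0.08 in the WT and -0.71 and 0.03 in the Pelo -/- comparisons, against -0.99, -0.49, -0.64 and -0.61 over all genes.

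Of 11 other synthase genes, edgeR called 4 higher in WT Lrig1 and 5 in WT Lgr6 than in WT Lgr5 cells, and none lower. Of 3 prostaglandin reductase genes 1 was higher in each. The share of all genes called higher was 9.09% and 10.6%. Cbr3, Ptgis and Tbxas1 are named because their calls changed with the setting. The call of Cbr3 in WT Lgr6 (adjusted p = 0.0452) was lost with RLE size factors (0.0967), at a minimum mean CPM of 5 (0.0978) and with only the compared groups (0.117). DESeq2 called Ptgis lower in WT Lrig1 (0.0178) and WT Lgr6 (0.0125), and Tbxas1 lower in WT Lrig1 (0.0185). Cbr2, a carbonyl reductase gene, was at 74.29 to 191.2 CPM in the 11 Lrig1 and Lgr6 libraries and 3.046 to 32.66 in the Lgr5 libraries, with log2 differences of 4.91 ± 0.58 (WT Lrig1, adjusted p = 3.63e-06) and 5.06 ± 0.57 (WT Lgr6, adjusted p = 1.53e-06). Fam213b, which encodes a prostaglandin F synthase, was higher by 5.26 ± 0.79 and 5.27 ± 0.77 (adjusted p = 5.71e-05 and 3.46e-05). Akr1b3 and Akr1b8, aldo-keto reductase genes, were higher by 2.57 ± 0.43 and 4.75 ± 0.79 in WT Lgr6, and Akr1b8 by 4.62 ± 0.81 in WT Lrig1. In the Pelo -/- comparisons Cbr2 was higher by 2.18 ± 0.50 (Lrig1) and 2.79 ± 0.51 (Lgr6), Fam213b by 3.75 ± 0.71 (Lgr6) and Akr1b3 by 1.88 ± 0.42 (Lrig1). Of the 53 other pathway genes tested, 9 were higher in every Lrig1 and Lgr6 library than in every Lgr5 library, and 1 was lower (Pla2g5, named after its values were seen, at 0 to 0.779 against 0.938 to 2.14 CPM), beside 7.55% and 2.38% of all genes.

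Of 4 transporter genes, 3 were called higher outside the Lgr5 cells by edgeR in each of the 4 comparisons. Over all genes the shares called higher were 9.09% (WT Lrig1), 10.6% (WT Lgr6), 5.77% (Pelo -/- Lrig1) and 7.23% (Pelo -/- Lgr6). Slco4a1, the remaining one, was at -2.20 in WT Lgr6 (adjusted p = 0.101), and DESeq2 (0.00472), limma-voom (0.0262), RLE size factors (0.0354), no filter on low counts (0.0354) and a minimum mean CPM of 5 (0.0142) called it lower there. In Pelo -/- Lgr6 the calls of Slco3a1 and Slco2a1 were lost with RLE size factors (adjusted p = 0.0775 and 0.0554) and at a minimum mean CPM of 5 (0.0681 and 0.112). In WT Lgr6 the edgeR call of Slco3a1 was also lost in both settings (0.0652 and 0.0545). With only the compared groups in the fit, Slco3a1 (0.0733) and Abcc4 (0.0566) lost their calls in WT Lgr6. Slco2a1, the prostaglandin uptake transporter, was at 60.31 to 137.9 CPM against 15.88 to 52.16 in Lgr5 libraries, a log2 difference of 2.35 ± 0.40 in WT Lrig1 (adjusted p = 0.000194). Abcc4, an exporter of prostanoids, was at 13.51 to 49.2 CPM against 1.525 to 11.39, with 3.39 ± 0.56 in Pelo -/- Lrig1 and 4.29 ± 0.58 in Pelo -/- Lgr6. Of 21 phospholipase A2 genes 2 were called higher in each comparison, a count close to those shares over all genes. Pla2g2f, a secreted epidermal form, was 1 of them, with 3.72 ± 0.66 (Pelo -/- Lrig1, adjusted p = 0.000696) and 4.32 ± 0.68 (Pelo -/- Lgr6, adjusted p = 0.000134). None of the 7 other receptor genes and none of the 7 tested Akr1c genes was called by edgeR in any of the 4. DESeq2 called 5 of these receptor genes lower: Ptgfr, Ptgdr2 and Tbxa2r in WT Lrig1 (adjusted p = 0.0373, 0.0489 and 0.0221), Ptgir and Ptgdr in Pelo -/- Lrig1 (0.0454 and 0.0207) and Ptgfr again in Pelo -/- Lgr6 (0.0337). It also called Akr1c14 lower in Pelo -/- Lrig1 (0.0363). Limma-voom called Ptgdr2 in WT Lrig1 (0.0440) and Ptgdr in Pelo -/- Lrig1 (0.0453), both lower.

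By edgeR 0, 1, 2 and 3 of the 59 genes were called lower outside the Lgr5 cells, beside 1.99%, 1.57%, 2.08% and 2.72% of all genes. DESeq2 called 13 higher and 8 lower in WT Lrig1, 12 and 7 in WT Lgr6, 11 and 6 in Pelo -/- Lrig1 and 11 and 7 in Pelo -/- Lgr6. Over all 30405 genes it called 7396, 6264, 4580 and 5175 in either direction. The genes edgeR called lower, apart from Hpgd, are named after their values were seen. Ptgds, the lipocalin-type prostaglandin D synthase, was lower in both Pelo -/- comparisons (-4.77 ± 1.46 and -7.20 ± 1.68), but this rested on 26.51 CPM in Pelo -/- Lgr5 replicate 1, where every other library held at most 3.423 CPM. Without that library the values were -1.56 (adjusted p = 0.421) and -3.99 (adjusted p = 0.0755), and the Lrig1 call was also lost under 7 other alternatives. Pla2g4e was lower in Pelo -/- Lgr6 (-3.01 ± 0.94, adjusted p = 0.0407), and this call was lost under 9 alternatives.

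**Figure D5:**
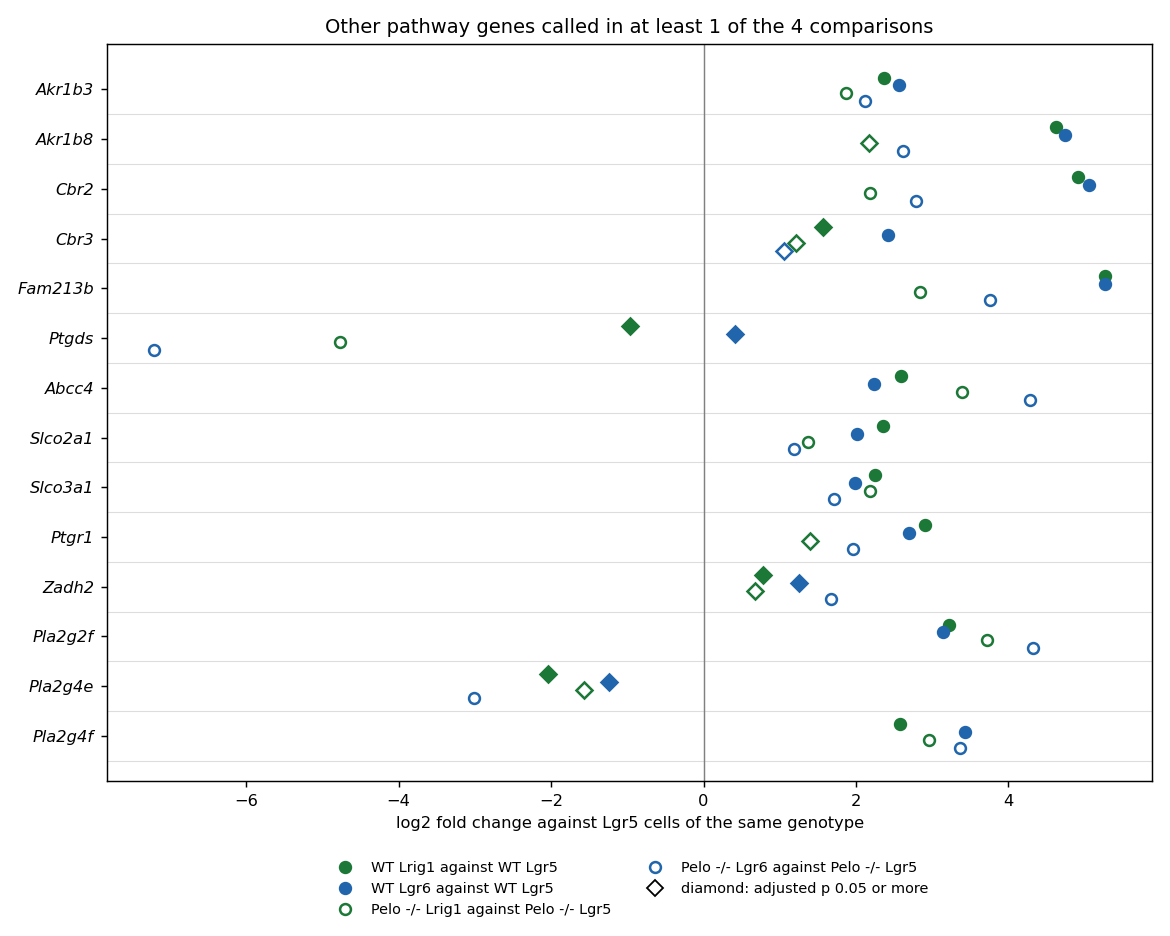
Log2 fold change against Lgr5 cells of the same genotype for the 14 other pathway genes called in at least 1 of 4 comparisons, grouped as synthases, transporters, reductases and phospholipases; circles are called, diamonds are not, filled is WT and open Pelo -/-. All but Ptgds and Pla2g4e lie to the right of 0 in every comparison.

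With Pelo loss, none of the 59 genes was called in any population, where 3 (Lrig1), 1 (Lgr6) and 6 (Lgr5) had an unadjusted p under 0.05. Cbr2 and Abcc4 had the smallest p in Lgr5 cells. Cbr2 was at 3.506, 5.89 and 3.046 CPM in WT Lgr5 and 32.66, 4.034 and 20.18 in Pelo -/- Lgr5, a log2 difference of 2.19 ± 0.51 (adjusted p = 0.139) between groups that overlapped. DESeq2 called it (adjusted p = 0.0436), as did edgeR without the filter on low counts (0.0140) and without Pelo -/- Lgr5 replicate 2 (0.0123). Abcc4 was at 11.39, 4.738 and 3.372 CPM in WT and 1.525, 2.618 and 1.82 in Pelo -/- libraries, without overlap, and the difference of -1.71 ± 0.53 was not called by edgeR (adjusted p = 0.470) and was called by DESeq2 (0.0265). In Lrig1 cells the smallest p belonged to Ptger1 and Akr1c19, and in Lgr6 cells to Ptgds and Pla2g4e, all at an adjusted p of 1.

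The genes most like the 3 selected ones were sought among 9156 genes by Pearson r of log2 CPM over the 17 libraries, in which each population shares its sort and its range of depth. Ptgs1 was most like Npl (0.991), Elovl4 (0.986), Ppp2r2c (0.983) and Oas1f (0.979). Akr1c18 was most like Ly6g6e (0.928), Wnt7b (0.905), Prdx5 (0.9) and Smox (0.898). Hpgds was most like Krt77 (0.972) and the near-identical copies Sprr2a3, Sprr2a1 and Sprr2a2 (0.967 to 0.971), whose reads may be split between them. Over the 11 Lrig1 and Lgr6 libraries alone, 1 of the 4 closest genes remained in each case, Elovl4 (0.918), Ly6g6e (0.864) and Krt77 (0.916).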

How the data were processed

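The values deposited by the authors were whole-number counts per gene, and these were used unchanged. STAR and edgeR and the builds GRCm38 and mm10 are named per the submitters' processing notes; the sources used here do not give the counter, the annotation or the use of strand. GENCODE M21 held 48144 of the 48820 identifiers, compared without version. The 9 genes, the lists and the tests were chosen with earlier results of these data known. A single edgeR 4.0.16 quasi-likelihood fit (R 4.3.3) took in all 17 libraries, with TMM factors, filterByExpr (count of at least 10, total of at least 15), 1 coefficient per group and Benjamini-Hochberg adjustment within each of 12 contrasts. The SE is the log2 fold change divided by the root of F. The method was tested on simulated data. Replicates differed by a chi-square of at least 45.1 per degree of freedom, so none was a copy. Alternatives were RLE size factors, no filter, a minimum mean CPM of 5, DESeq2 1.42.0, limma-voom (limma 3.58.1), only the compared groups, a replicate block, and each library left out. The pooled contrast and the counts of libraries that did not overlap were chosen after seeing the data. Orders of libraries within groups were not among the planned results. Named were all 9 genes and, of other pathway genes, up to 4 called with the smallest adjusted p per comparison, or up to 2 with the smallest p where none was called, with exceptions stated. Sequences are from RefSeq (GRCm38.p6).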

Additional observations from a re-analysis of the deposited data

How the results depend on the processing

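Over 24 alternatives, 1585 of the 1713 values obtained for the 6 tested genes kept their direction and their side of the threshold, 22 lost a call, 20 gained one and 86 changed sign, none of the last called. The count of pathway genes called in WT Lrig1 against WT Lgr5 cells was 13 and became 21 with DESeq2 (13 higher and 8 lower, against 13 and 0), and 8 to 13 with 1 library left out (8 without WT Lrig1 replicate 2). It was 13 in WT Lgr6 against WT Lgr5 cells (11 to 15 with 1 library left out) and 12 in Pelo -/- Lrig1 against Pelo -/- Lgr5 cells (8 to 14, with 8 without Pelo -/- Lgr5 replicate 3). In Pelo -/- Lgr6 against Pelo -/- Lgr5 cells it was 15 (9 to 16, with 9 without Pelo -/- Lgr5 replicate 3). In Pelo -/- against WT Lgr5 cells the count of 0 became 1 without the filter on low counts, 2 with DESeq2 and 0 to 1 with 1 library left out. In Pelo -/- Lrig1 against Pelo -/- Lgr6 cells it became 1 with no filter and 1 with DESeq2 (Hpgd), as it did in the difference of the Pelo effect between Lgr6 and Lgr5 cells (Ptgds). The cause was not tested. Without 1 WT Lrig1 library that group is a single sample, whose spread is assumed to be that of the other groups. Replicate numbers did not pair the libraries: of 24 same-numbered pairs 2 had deviations correlated over 0.1 (range -0.227 to 0.237). With the replicate block the counts against Lgr5 cells were 13 (WT Lrig1), 13 (WT Lgr6), 13 (Pelo -/- Lrig1) and 15 (Pelo -/- Lgr6). Depth limited Ptger3 (1 to 32 counts per library) and, in Lgr5 libraries, Ptgs1, Hpgds and Akr1c18 (2 to 86 counts).

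The sign changes, as log2 differences, were as follows, and their cause was not tested. Ptgs2 turned to -0.19 with RLE size factors, -0.52 at a minimum mean CPM of 5, -0.19 with DESeq2, -0.18 with limma-voom, -0.0385 with only the groups compared in the fit for Pelo loss in Lgr5. It turned to -0.17 at a minimum mean CPM of 5 for WT Lrig1 against WT Lgr5. It turned to 0.19 with limma-voom for WT Lrig1 against WT Lgr6. It turned to -0.0442 at a minimum mean CPM of 5 for Pelo -/- Lrig1 against Pelo -/- Lgr5. It turned to 0.13 at a minimum mean CPM of 5 for the Pelo effect in Lrig1 less that in Lgr5. It turned to -0.035 with no filter on low counts for the Pelo effect in Lgr6 less that in Lgr5. With 1 library left out Ptgs2 spanned -1.49 to 0.0175 for Pelo loss in Lrig1, -0.31 to 1.34 for Pelo loss in Lgr6, -0.87 to 0.80 for Pelo loss in Lgr5, -1.12 to 0.56 for WT Lrig1 against WT Lgr6, -0.70 to 1.26 for Pelo -/- Lrig1 against Pelo -/- Lgr5, -1.54 to 0.42 for the Pelo effect in Lrig1 less that in Lgr5, -0.58 to 1.26 for the Pelo effect in Lgr6 less that in Lgr5. Ptges turned to 0.00224 with RLE size factors, 0.0265 with no filter on low counts, 0.018 at a minimum mean CPM of 5, 0.00216 with DESeq2, 0.00792 with the replicate block, 0.0541 with only the groups compared in the fit for Pelo loss in Lrig1. It turned to 0.0465 with RLE size factors, 0.0599 with no filter on low counts, 0.0556 at a minimum mean CPM of 5, 0.0464 with DESeq2, 0.0585 with limma-voom, 0.0626 with only the groups compared in the fit for Pelo -/- Lrig1 against Pelo -/- Lgr6. With 1 library left out Ptges spanned -0.21 to 0.14 for Pelo loss in Lrig1, -0.42 to 0.053 for WT Lrig1 against WT Lgr6, -0.25 to 0.16 for Pelo -/- Lrig1 against Pelo -/- Lgr6, -0.16 to 1.66 for the Pelo effect in Lgr6 less that in Lgr5, -0.00729 to 0.42 for the Pelo effect in Lrig1 less that in Lgr6. Ptges3 turned to 0.0888 with limma-voom for Pelo loss in Lgr5. With 1 library left out Ptges3 spanned -0.10 to 0.62 for Pelo loss in Lgr6, -0.49 to 0.40 for Pelo loss in Lgr5, -0.19 to 0.33 for Pelo -/- Lrig1 against Pelo -/- Lgr6, -0.0328 to 0.80 for the Pelo effect in Lgr6 less that in Lgr5. With 1 library left out Hpgd spanned -0.71 to 0.12 for the Pelo effect in Lrig1 less that in Lgr5. Ptger3 turned to 0.049 with RLE size factors, 0.0453 with DESeq2 for the Pelo effect in Lgr6 less that in Lgr5. Leaving out 1 library, Ptger3 spanned -1.85 to 0.38 for Pelo loss in Lrig1, -0.64 to 0.94 for Pelo loss in Lgr5, -1.26 to 0.31 for WT Lgr6 against WT Lgr5, -1.79 to 0.52 for the Pelo effect in Lrig1 less that in Lgr5, -1.25 to 0.35 for the Pelo effect in Lgr6 less that in Lgr5, -1.40 to 0.71 for the Pelo effect in Lrig1 less that in Lgr6. Ptger4 turned to 0.0653 with the replicate block for the Pelo effect in Lrig1 less that in Lgr6. Leaving out 1 library, Ptger4 spanned -0.29 to 0.65 for Pelo loss in Lrig1, -0.11 to 0.45 for Pelo loss in Lgr6, -0.89 to 0.12 for the Pelo effect in Lrig1 less that in Lgr5, -0.76 to 0.10 for the Pelo effect in Lgr6 less that in Lgr5, -0.61 to 0.32 for the Pelo effect in Lrig1 less that in Lgr6.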

Other observations

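Lipoxygenases use the same arachidonic acid as cyclooxygenases, and 15 genes of that branch were read for comparison. Against Lgr5 cells 3 were called higher and 1 lower in WT Lrig1, and 2 higher and 1 lower in each of WT Lgr6, Pelo -/- Lrig1 and Pelo -/- Lgr6. Of all genes tested, 9.09% were higher and 1.99% lower in the first of these comparisons, 10.6% and 1.57% in the second, 5.77% and 2.08% in the third and 7.23% and 2.72% in the last. The genes named here were chosen after their values were seen. Alox12e, the epidermal 12-lipoxygenase gene, was at 103 to 394.8 CPM in the Lrig1 and Lgr6 libraries and 3.034 to 41.36 in the Lgr5 libraries. Cysltr1, a receptor for cysteinyl leukotrienes, was at 13.39 to 75.4 CPM against 0 to 2.463. Alox8 had the opposite pattern, with 0 to 2.323 CPM in the Lrig1 and Lgr6 libraries and 6.104 to 18.49 in the Lgr5 libraries. None of the 15 genes was called with Pelo loss by edgeR in any population, where 1 (Lrig1), 0 (Lgr6) and 0 (Lgr5) had an unadjusted p under 0.05.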
